A study of Mus musculus with 6 samples.

Results

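The killer cell lectin-like receptors are a family of membrane proteins that natural killer (NK) cells and activated CD8+ T cells use to recognise stressed, infected or altered cells. The 8 genes described are Klrk1, Klrd1, Klrc1, Klrc2, Klre1, Klrg1, Klrb1c and Klrb1f, out of 22180 genes that have a probe set carrying 1 symbol. They were taken by exact gene symbol in the platform annotation, and each of the 8 had 1 such probe set, so no choice between probe sets was needed. The cells were mouse CD8+ T cells from spleen, sorted as naive and stimulated with antibodies to CD3 (1 µg/ml) and CD28 (3 µg/ml), 4 days of culture in all. Tc17 cultures received IL-6 and TGF-beta during 3 of these days, Tc1 cultures received IL-12 in their place, and both then had IL-2 for 1 day. Each condition had 2 biological samples, and a technical array numbered 2 was read as a repeat of sample 2, which gives 3 arrays per condition. The sources used here do not give strain, age, sex or the number of animals behind a sample. Nothing states that the samples came from separate animals or cultures, so p-values measure the spread between these samples, which may be technical.

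Some of these receptors activate the cell and others restrain it. Klrk1 (NKG2D) triggers killing when it binds stress-induced relatives of MHC class I molecules, and Klrd1 (CD94) forms a dimer either with Klrc1 (NKG2A), which inhibits, or with Klrc2 (NKG2C), which activates, both reading the class I-like molecule Qa-1. Klrg1 is an inhibitory receptor for cadherins and a marker of terminally differentiated effector CD8+ T cells. Klrb1c carries the NK1.1 antigen of NK cells, Klrb1f is its relative that binds Clec2 proteins, and Klre1 forms dimers with the products of Klri1 or Klri2.

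The values are RMA log2 intensities, on which a difference of 1 is a 2-fold ratio of intensity. Array medians lay between 6.04 and 6.09. No detection call comes with the arrays, so a probe set below these medians is described as dim and its signal is not shown to lie above background. Levels are not compared between genes, because probe sets differ in brightness for the same amount of RNA. The small number of arrays limits the precision of every difference. All 8 measured CD8 T cell markers lay above the array medians on all arrays. Cd8a measured 12.78 ± 0.04 in Tc17 and 12.91 ± 0.04 in Tc1 (log2, SD, n = 2 each). Also above the medians on all arrays were 2 of 3 measured CD4 T cell markers and 3 of 4 measured NKT and gamma-delta T cell markers. A level above the medians therefore does not by itself show the labelled identity. Of 14 listed NK cell markers 10 were measured, none was called different, and their summed unlogged intensity ran from 757 to 903 on Tc17 arrays and from 678 to 780 on Tc1 arrays. Of these 10 markers 5 lay above the medians on all arrays and 4 below on all. Ncr1, a defining NK cell gene, was dim at 5.02 in Tc17 and 5.01 in Tc1. The 5 above the medians were Fcer1g (difference 1.19), Tyrobp (0.49), Car2 (0.27), Fcgr3 (0.07) and Itga2 (−0.54). Fcer1g and Tyrobp, which myeloid cells also use, read higher on every Tc17 array without being called. In the lists for other cell types Lyz2 (macrophages, difference 3.53) and Ebf1 (B cells, difference 3.13) were called higher in Tc17. The summed unlogged intensity of 6 B cell markers ran from 1877 to 2099 on Tc17 arrays and from 1113 to 1236 on Tc1 arrays. Ms4a1 and Cd22 were dim on all arrays, and Cd79b and Pax5 were above the medians on all. Pax5, Cd22, Cd79a and Ms4a1 had small differences of 0.004, 0.009, 0.016 and −0.06. Cd79b, a chain of the B cell receptor, measured 10.32 ± 0.10 in Tc17 and 9.80 ± 0.15 in Tc1 (log2, SD, n = 2 each; limma adjusted p = 0.162) and did not overlap between the cultures. The sum of 10 macrophage and dendritic cell markers ran from 1768 to 2032 on Tc17 arrays and from 1278 to 1736 on Tc1 arrays. Lyz2 alone keeps these ranges apart. Cd68, Csf1r and Itgam were above the medians on all arrays, and 5 of the 10 were dim on all. In 4 of the 10 every Tc17 array was above every Tc1 array, against 29.7% of all genes not overlapping in either direction. These were Lyz2, Csf1r (difference 0.28), and Cd14 (0.25) and Adgre1 (0.38), the last 2 dim on all arrays. Limma called Lyz2 alone of the 10, and Cd68 was at −0.14. The part of B cells, macrophages and dendritic cells in the receptor differences was not tested.

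Klrk1 and Klrg1 were lower in Tc17 than in Tc1, and the other 6 receptors did not pass the test. Of the 8 genes, 2 (both lower) had an adjusted p under 0.05 in limma's moderated test, against 1.58% of all genes in either direction, 0.591% of all genes lower and 0.992% higher in Tc17, and 1.01% of all probe sets. An unadjusted p under 0.05 was found for 4 of the 8 (Klrk1, Klrg1, Klrd1 and Klre1), against 15.9% of all genes. On 4 of the 8 the 3 Tc17 arrays lay entirely to one side of the 3 Tc1 arrays, 2 lower (Klrk1, Klrg1) and 2 higher (Klrd1, Klre1), against 29.7% of all genes. The median difference of the 8 was −0.01 on the log2 scale, the same to 2 decimals as the −0.01 of all genes, and the 8 differences ran from −1.31 to 0.43. In RNA from whole cultures, fewer cells carrying a receptor and less of its RNA per cell cannot be told apart.

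**Figure D1:**
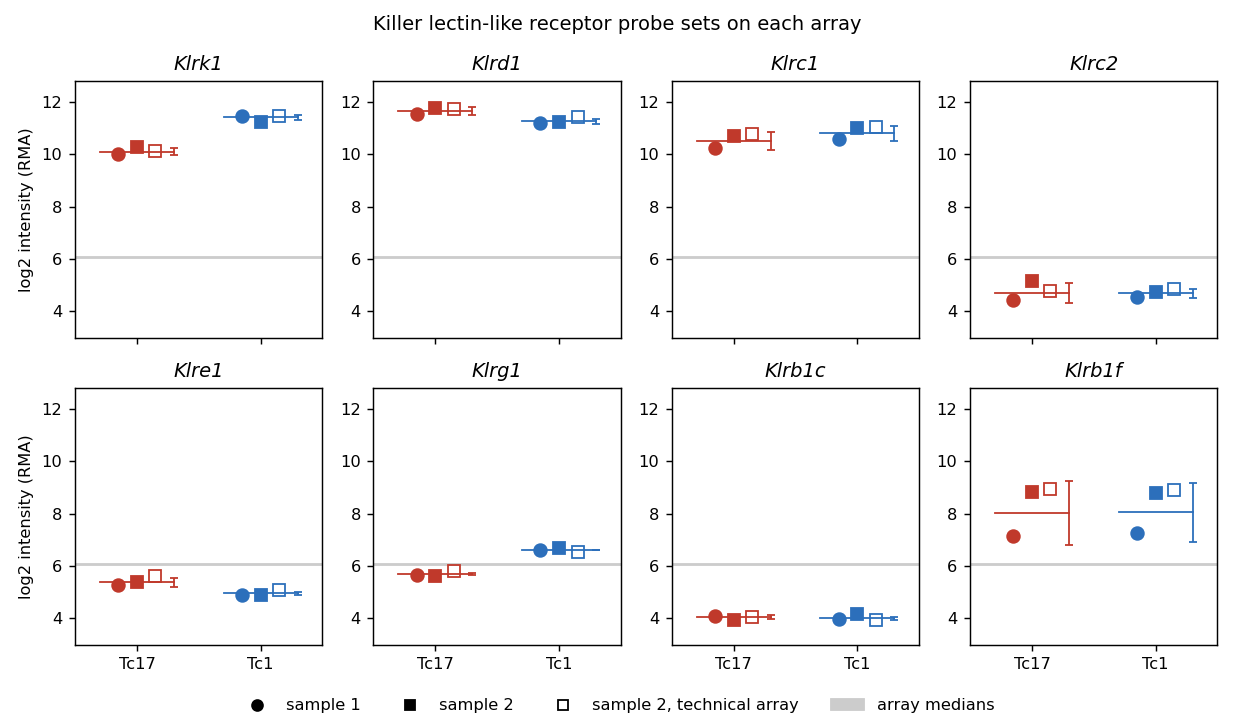
Log2 intensity (RMA, vertical axis) of the 8 receptor probe sets on each array, Tc17 left and Tc1 right in each panel. Circles are sample 1, filled squares sample 2, open squares the technical array of sample 2, the line is the mean of the 2 samples and the bar at its right end is ± 1 SD (n = 2); the grey band spans the array medians. Klrk1 and Klrg1 sit lower in Tc17 on every array, whereas Klrb1f differs between sample 1 and sample 2 in both cultures.

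Klrk1 encodes NKG2D, the activating receptor of cytotoxic cells that signals through the adaptor DAP10. Its Tc17 arrays read 10.01 for sample 1 and 10.26 and 10.13 for sample 2, and its Tc1 arrays 11.48 for sample 1 and 11.24 and 11.48 for sample 2. Every Tc17 array was below every Tc1 array, and both cultures were well above the array medians. The means were 10.10 ± 0.13 in Tc17 and 11.42 ± 0.09 in Tc1 (log2, SD, n = 2 each), which makes it 2.49-fold lower in Tc17 (log2 −1.31 ± 0.10, SE; limma adjusted p = 0.020). The 95% confidence interval of the difference was −1.58 to −1.05. Within sample 1 the difference was −1.47 and within sample 2 it was −1.16.

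Klrg1 encodes an inhibitory receptor for E-, N- and R-cadherin. Its Tc17 arrays measured 5.67, 5.63 and 5.83, and its Tc1 arrays 6.60, 6.69 and 6.53. All 3 Tc17 values were below, and all 3 Tc1 values above, the array medians. The log2 difference was −0.91 ± 0.07 (SE; limma adjusted p = 0.0216; interval −1.10 to −0.71). The corresponding 1.88-fold is a ratio of intensities and not shown to be one of transcripts, since the Tc17 signal was dim. The differences within sample 1 and within sample 2 were −0.93 and −0.89.

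Both calls rested on having 2 samples in each condition, and calls also fell over all probe sets when a sample was left out. Without Tc17 sample 1, Tc17 sample 2, Tc1 sample 1 or Tc1 sample 2, the Klrk1 difference was −1.22, −1.41, −1.25 or −1.38 and its limma adjusted p ran from 0.0729 to 0.116. The Klrg1 difference was −0.88, −0.94, −0.91 or −0.90 in the same order, with adjusted p from 0.111 to 0.152. The direction held while the call ended in each of these 4 fits, in which the lone sample of a culture is assumed to vary like the other culture's samples. An unmoderated test of the same model called none of the 8 genes and no other probe set, with 2 of the 8 at an unadjusted p under 0.05. Both calls therefore rested on limma's moderation as well.

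The upstream sequence of Klrk1 is shown because it is the called receptor with an entry in the RefSeq promoter table (build GRCm38.p6), beside that of Klrc1, a neighbouring receptor that did not pass. Each window holds 250 bases before and 50 after an annotated gene start, printed 5′ to 3′ on the gene's strand (minus for both), and capitals mark the RUNX motif TGTGGT or its reverse complement. The Klrk1 window is chr6:129623815-129624114 and the Klrc1 window is chr6:129678924-129679223.
Klrk1: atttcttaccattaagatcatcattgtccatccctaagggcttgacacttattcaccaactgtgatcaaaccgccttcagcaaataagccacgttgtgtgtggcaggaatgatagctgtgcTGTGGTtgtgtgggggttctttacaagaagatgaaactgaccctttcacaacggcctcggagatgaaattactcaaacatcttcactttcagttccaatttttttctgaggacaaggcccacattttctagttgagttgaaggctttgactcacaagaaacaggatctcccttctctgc
Klrc1: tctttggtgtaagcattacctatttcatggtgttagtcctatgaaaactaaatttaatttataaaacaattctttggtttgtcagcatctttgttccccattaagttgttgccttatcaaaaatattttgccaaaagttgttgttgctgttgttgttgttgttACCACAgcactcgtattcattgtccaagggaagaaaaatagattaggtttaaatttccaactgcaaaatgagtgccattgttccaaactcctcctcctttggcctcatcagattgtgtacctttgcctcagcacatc
The match begins at base 122 of the Klrk1 window and at base 164 of the Klrc1 window, counted from the 5′ end. Of the 8 receptors 6 had windows in the table, all but Klrg1 and Klrd1. For 5 of these 6 (Klrk1, Klrc1, Klrc2, Klre1 and Klrb1c) a window held this motif on either strand. Counted by window, 6 of their 8 windows held it, against 16.8% of all 32851 promoter windows. Klrc2 and Klre1 have 2 overlapping windows each, which are not independent. The T-box motif TCACACC, held by 3.98% of all windows, and the SMAD motif GTCTAGAC, held by 0.213%, were in none of them. The STAT motif TTCNNNGAA, held by 8.30% of all windows, was in the Klrb1f window, and no window held more than 1 kind of motif. The motif letters are a description of these windows and not evidence of binding. Runx3, the RUNX factor of CD8+ T cells and named after its values were seen, measured 11.89 ± 0.16 in Tc17 and 11.75 ± 0.17 in Tc1 (log2, SD, n = 2 each; limma adjusted p = 0.741).

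Klrd1, Klrc1 and Klrc2, the subunits of the CD94 dimers, did not pass the test. Klrd1, the CD94 chain shared by the dimers, measured 11.53, 11.79 and 11.73 on the Tc17 arrays and 11.20, 11.24 and 11.41 on the Tc1 arrays. The arrays did not overlap, yet the log2 difference of 0.38 ± 0.11 (SE) gave a limma adjusted p of 0.264, with an interval of 0.09 to 0.67. That interval is for a single gene without adjustment over genes. Klrc1, the inhibitory NKG2A chain, measured 10.26, 10.70 and 10.78 in Tc17 and 10.60, 11.00 and 11.03 in Tc1, so the arrays of the 2 cultures overlapped. Its log2 difference was −0.31 ± 0.22 (SE; limma adjusted p = 0.655; interval −0.89 to 0.27). In both cultures Klrc1 was higher in sample 2 than in sample 1, by 0.48 in Tc17 and by 0.41 in Tc1. Klrc2, the activating NKG2C chain, was dim on all 6 arrays, from 4.42 to 5.15 in Tc17 and from 4.57 to 4.88 in Tc1, with a difference of 0.01 (interval −0.54 to 0.56). Klrc1, Klrc2 and Klrc3 are close relatives, and signal shared between their probe sets cannot be separated here.

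Klre1 and Klri2, which encode chains of the same dimer in mouse and rat, both read higher in Tc17 without passing the test. Klre1 measured 5.26, 5.39 and 5.62 in Tc17 and 4.91, 4.90 and 5.09 in Tc1, all below the array medians. Its log2 difference was 0.43 ± 0.11 (SE; limma adjusted p = 0.218; interval 0.14 to 0.72). Klri2, the chain of the activating dimer, measured 7.61, 8.37 and 8.36 in Tc17 and 6.58, 7.06 and 6.76 in Tc1. Its arrays did not overlap, and the difference of 1.25 ± 0.28 (SE), the highest among the 23 measured receptor genes of the family, had a limma adjusted p of 0.181. Klri1, the chain of the inhibitory dimer and named after its values were seen, was dim in both cultures (4.39 in Tc17 and 4.50 in Tc1).

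Klrb1c, the NK1.1 gene, was dim on every array, at 4.10, 3.95 and 4.06 in Tc17 and at 3.96, 4.17 and 3.93 in Tc1. The difference was 0.04 (interval −0.17 to 0.26). Another probe set, which carries its symbol together with that of a relative, was equally dim, from 4.04 to 4.21 in Tc17 and from 4.12 to 4.23 in Tc1.

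Klrb1f varied more between samples than between cultures. Tc17 cultures gave 7.15 for sample 1 and 8.82 and 8.93 for the repeat arrays of sample 2, and Tc1 cultures gave 7.25 for sample 1 and 8.79 and 8.91 for sample 2. Sample 2 exceeded sample 1 by 1.73 in Tc17 and by 1.60 in Tc1 (log2), whereas Tc17 minus Tc1 was −0.11 in sample 1 and 0.03 in sample 2. The difference between cultures was −0.04 with an interval of −2.09 to 2.01 (limma adjusted p = 0.992), which this spread makes too wide to exclude a 2-fold change in either direction. The technical array was within 0.11 of the sample 2 array in Tc17 and within 0.12 in Tc1. It was 1.78 away from the sample 1 array in Tc17 and 1.66 away in Tc1. Klra5, which encodes the receptor Ly49E and lies in the same gene cluster, showed the same ordering. Tc17 cultures gave 6.98 for sample 1 and 8.65 and 8.71 for sample 2, and Tc1 cultures gave 6.22 for sample 1 and 8.33 and 8.29 for sample 2. The labels do not say whether samples of the same number share an animal or a day.

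**Figure D2:**
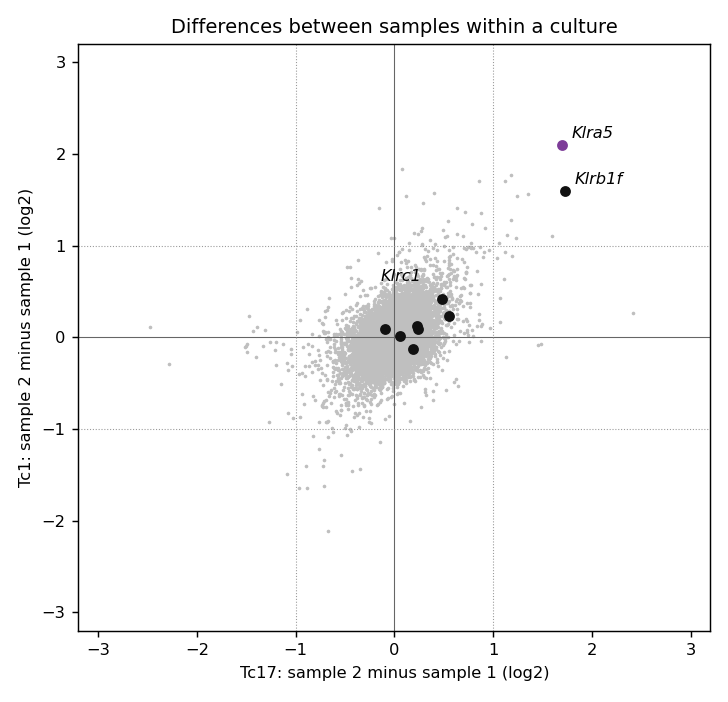
Sample 2 minus sample 1 (log2) within Tc17 cultures (horizontal axis) and within Tc1 cultures (vertical axis) for each of 22180 genes (grey), with the 8 receptors in black and Klra5 in purple. Dotted lines mark a difference of 1; Klra5 and Klrb1f lie beyond it in both cultures, Klra5 at 1.70 in Tc17 and 2.09 in Tc1 and Klrb1f at 1.73 in Tc17 and 1.60 in Tc1.

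Beyond these 8, 15 other genes of the family had a probe set of their own. Limma called none of the 15, with 2 (Klri2 and Klrg2) at an unadjusted p under 0.05 (against 15.9% over all genes). Their median difference was −0.02, 7 were above 0 and 8 below, and 12 of the 15 were dim on all arrays. The 3 that were not dim were Klri2, Klra5 and Klrg2, a more distant relative named after its values were seen (7.63 ± 0.19 in Tc17 and 7.19 ± 0.01 in Tc1, log2, SD, n = 2 each; limma adjusted p = 0.221). A further 4 probe sets carry several symbols of the family, and none of them was called.

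**Figure D3:**
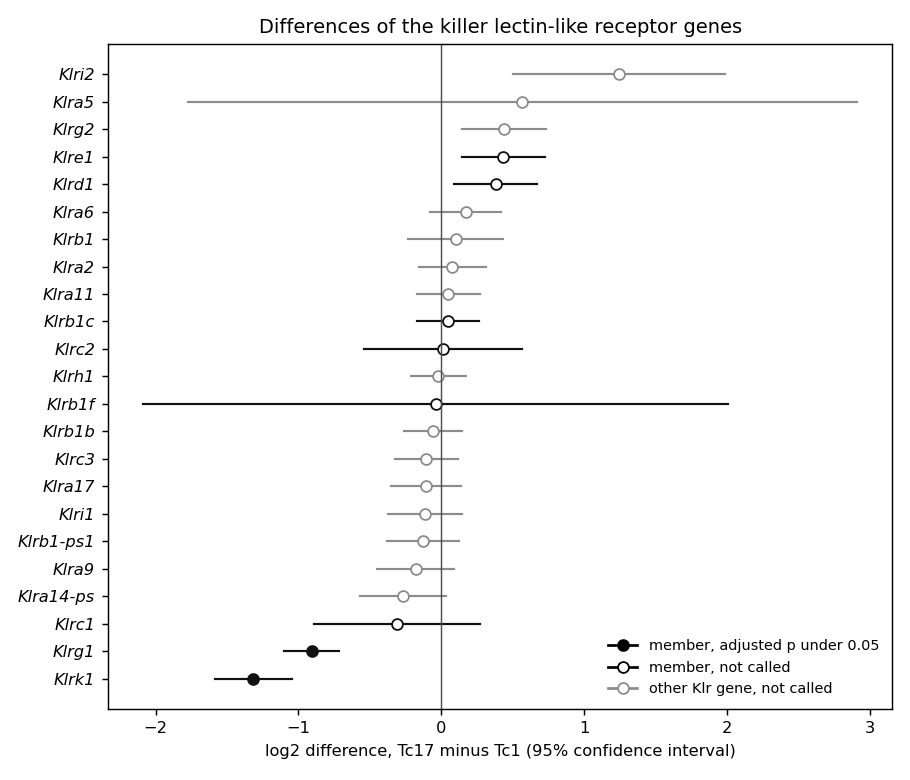
Log2 difference, Tc17 minus Tc1 (horizontal axis), with its 95% confidence interval without adjustment over genes, for the 8 members (black) and 15 other genes of the family (grey). Filled points passed an adjusted p of 0.05: Klrk1 and Klrg1, at −1.31 and −0.91.

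The receptors' ligands, adaptors and regulators were then read from the same fit. None of 13 measured ligand genes was called by limma, against 5 at an unadjusted p under 0.05 (against 15.9% over all genes), and their median difference was −0.17. Ulbp1, which encodes the NKG2D ligand MULT1, measured 7.81, 6.78 and 6.87 in Tc17 and 9.35, 9.41 and 9.41 in Tc1. All Tc17 arrays were lower, but the 2 Tc17 samples lay apart, and the difference of −2.06 ± 0.33 (SE) had a limma adjusted p of 0.096. Without Tc17 sample 1 the difference was −2.55 (limma adjusted p = 0.031), but that fit holds 1 Tc17 sample and takes its spread from the Tc1 samples, whose SD was 0.04, so the p does not carry the distance between the Tc17 samples. Cdh1, the E-cadherin gene and a ligand of Klrg1, measured 7.13 ± 0.15 in Tc17 and 8.35 ± 0.54 in Tc1 (log2, SD, n = 2 each; limma adjusted p = 0.173). H2-T23, which encodes the Qa-1 heavy chain read by CD94 dimers and was named after its values were seen, measured 10.85 ± 0.08 in Tc17 and 11.30 ± 0.04 in Tc1 (log2, SD, n = 2 each; limma adjusted p = 0.124). Clec2i, which encodes a ligand of Klrb1f, measured 6.90 ± 0.24 in Tc17 and 5.84 ± 0.63 in Tc1 (limma adjusted p = 0.283; log2, SD, n = 2 each). These 4 ligand genes were called with the technical array averaged with sample 1, a setting that raised calls over all probe sets. The technical array lay nearer to sample 2 than to sample 1. Its median absolute difference over all probe sets was 0.09 against 0.11 in Tc17 and 0.09 against 0.12 in Tc1. Averaging it with sample 1 therefore mixes the samples, and calls made that way are not taken as support.

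None of 15 measured adaptor and kinase genes was called by limma, against 6 at an unadjusted p under 0.05 (against 15.9% over all genes), and their median difference was −0.01. Hcst, the gene of the NKG2D adaptor DAP10 and named after its values were seen, measured 7.92, 7.77 and 7.53 in Tc17 and 7.54, 7.67 and 7.72 in Tc1. These arrays overlapped, and the difference was 0.17 (interval −0.16 to 0.49). Fcer1g, the adaptor of NK1.1, measured 7.56 ± 0.43 in Tc17 and 6.37 ± 0.03 in Tc1, a difference of 1.19 ± 0.21 (SE; limma adjusted p = 0.121; log2, SD, n = 2 each). Plcg2, a phospholipase downstream of such adaptors, had a difference of −0.96 ± 0.13 (SE; limma adjusted p = 0.0678). Both Fcer1g and Plcg2 were called with the technical array averaged with sample 1.

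Among 20 measured regulators of these receptors in T and NK cells 4 were called, 2 higher and 2 lower, against 1.58% of all genes called, 0.992% higher and 0.591% lower, and the list's median was −0.08. Tbx21, the gene of T-bet, a T-box factor of type 1 effector cells, measured 8.60 ± 0.07 in Tc17 and 11.39 ± 0.04 in Tc1 (log2, SD, n = 2 each), 6.90-fold lower in Tc17 (limma adjusted p = 0.00272). Il15ra, which presents IL-15 to T and NK cells, measured 7.52, 7.52 and 7.50 in Tc17 and 8.41, 8.36 and 8.25 in Tc1, 1.79-fold lower (limma adjusted p = 0.031). Bach2, a repressor of effector genes, measured 9.95 ± 0.05 in Tc17 and 8.54 ± 0.08 in Tc1 (log2, SD, n = 2 each). Tgfbr1, a chain of the TGF-beta receptor, measured 8.73, 8.55 and 8.75 in Tc17 and 7.63, 7.80 and 7.80 in Tc1, 1.97-fold higher (limma adjusted p = 0.0334). Prdm1, the gene of Blimp-1, and Id3 missed the threshold with differences of −2.38 (limma adjusted p = 0.0621) and 1.21 (limma adjusted p = 0.103), and both were called with the technical array averaged with sample 1. Fewer of the 20 were called with each sample left out in turn, in fits that hold 1 sample in a culture. Tgfbr1 also missed the threshold with the technical array left out (limma adjusted p = 0.0566), and Il15ra with trend and robust settings (limma adjusted p = 0.0507).

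**Figure D4:**
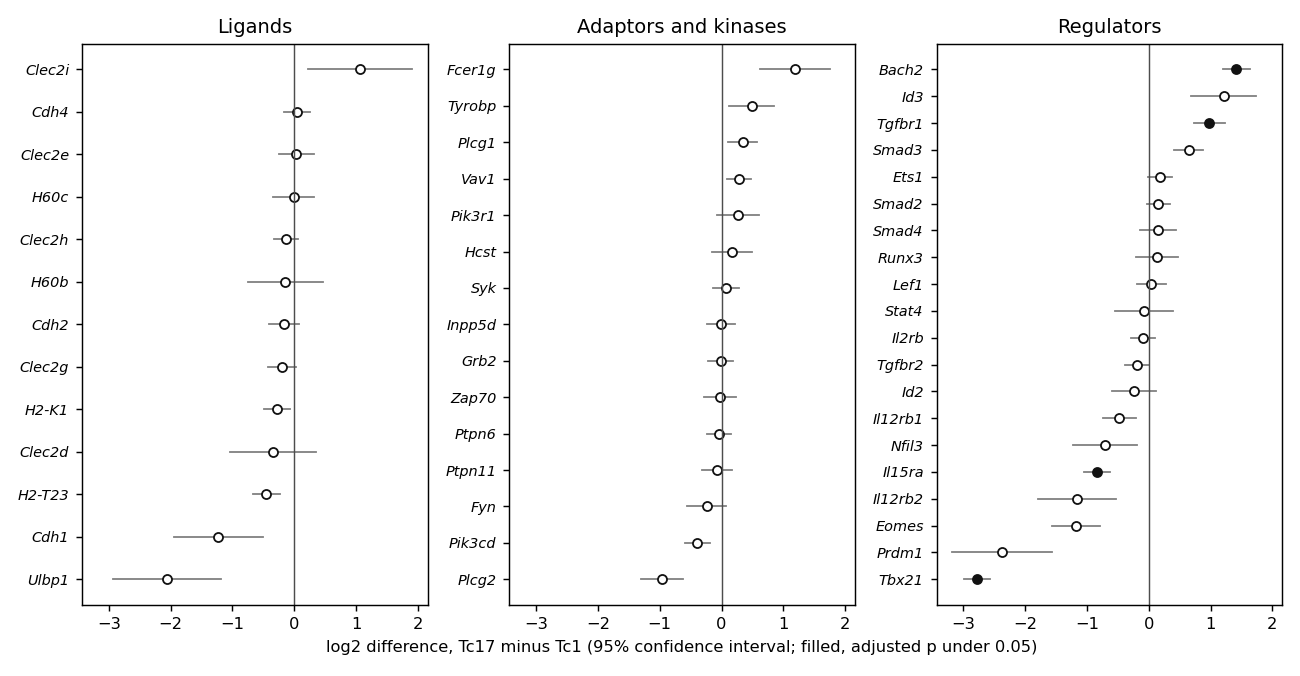
Log2 difference, Tc17 minus Tc1 (horizontal axes), with 95% confidence intervals without adjustment over genes, for measured ligands, adaptors and kinases, and regulators of the receptors. Filled points passed an adjusted p of 0.05: Tbx21 and Il15ra lower, Bach2 and Tgfbr1 higher in Tc17.

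Apart from Klrg1, the members lie together on chromosome 6 in the NK gene complex, a cluster of lectin-like receptor genes and their Clec2 ligands. Klre1, Klrd1 and Klrk1 follow each other there among the measured genes, and they had differences of 0.43, 0.38 and −1.31, so the values of neighbouring genes had opposite signs. Klrk1 was the only gene called among the 43 measured genes between Klrb1a and Klra2, against 1.58% of all genes called. Of the 23 that are not of the Klr family none was called by limma, with 8 at an unadjusted p under 0.05 (against 15.9% over all genes), and their median difference was −0.06. Averaging the technical array with sample 1 raised calls over all probe sets. It called 4 of the 23 (Clec2i, BC064078, Cd69 and Clec7a). Among these Clec7a, the gene of the fungal glucan receptor Dectin-1, measured 8.23, 7.005 and 6.65 in Tc17 and 5.59, 5.35 and 5.39 in Tc1. Its difference of 2.05 ± 0.47 (SE) had a limma adjusted p of 0.185, and of 0.0337 without Tc17 sample 2, when the difference was 2.75. That fit holds 1 Tc17 sample, the higher one, and takes its spread from the Tc1 samples (SD 0.15). Clec7a is also a gene of macrophages and dendritic cells, and their part in its result was not tested. The sum of their 10 markers was higher on every Tc17 array than on any Tc1 array, a separation that rests on Lyz2. That gene read 9.18, 8.74 and 8.79 in Tc17 and 5.44, 5.21 and 5.68 in Tc1. Of these markers Lyz2 alone was called (difference 3.53). The next largest absolute difference was 0.40 (Itgax), and Cd68 was at −0.14.

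**Figure D5:**
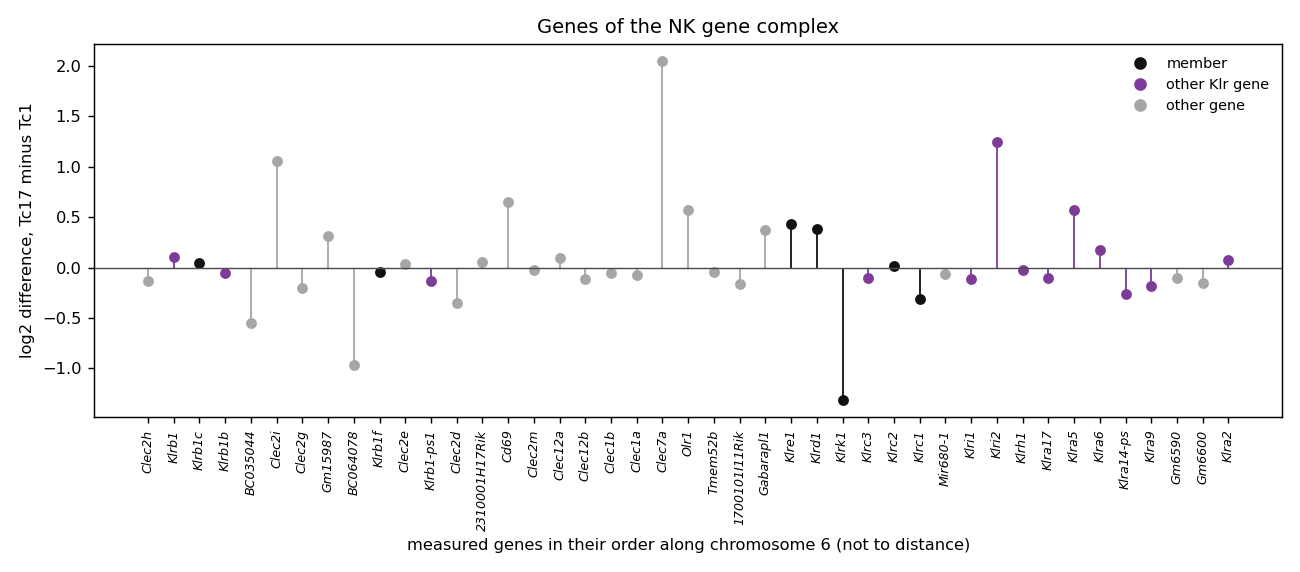
Log2 difference, Tc17 minus Tc1 (vertical axis), of 43 measured genes of the NK gene complex in their order along chromosome 6 (horizontal axis, not to distance), for members (black), other Klr genes (purple) and other genes (grey). Klrk1 has the lowest value, −1.31, and follows Klrd1 at 0.38.

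The 5 genes whose profile was nearest to that of Klrk1 were Zfp608, Hopx, Lat2, Ms4a6b and Nkg7. Nearness was the root mean square distance between log2 values over the 6 arrays, each gene centred on its own mean, and it ran from 0.104 to 0.110 for these genes. Nkg7, a cytotoxic granule membrane protein gene, measured 11.98, 12.15 and 12.03 in Tc17 and 13.16, 13.08 and 13.16 in Tc1. Hopx, the gene of an atypical homeodomain protein of effector lymphocytes, measured 7.23, 7.45 and 7.27 in Tc17 and 8.43, 8.43 and 8.48 in Tc1. Having been picked for likeness to Klrk1, these genes give no further test of its difference.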

How the data were processed

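The authors deposited log2 intensities of 6 single-colour Affymetrix arrays, for which the submitters' processing notes name RMA and Partek without version or role. The sources used here give neither genome build nor annotation release. RMA in general corrects background, normalizes arrays by quantiles and summarizes probes, which draws arrays to a common distribution. The 41345 probe sets have no depth and no detection call, and control probe sets could not be told apart and stayed in.

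The technical array was averaged with sample 2 of its culture, which left 2 samples per group, and Tc17 was compared with Tc1 by limma 3.58.1 in R 4.3.3 (lmFit, eBayes; 2 residual and 2.63 prior degrees of freedom). P-values were adjusted by Benjamini-Hochberg over all probe sets, with a threshold of 0.05 and no filter. Each gene was read from the probe set of highest mean over the 6 arrays among those carrying its symbol alone. Of 41345 probe sets 23521 carried 1 symbol, 1814 several and 16010 none. Entrez identifiers matched 21994 of 22180 genes to the RefSeq table of GRCm38.p6, used for names and gene order. The plan took the gene complex as all genes between the outermost Klr genes other than Klrg1; Klrg2 and alternate loci lie far off, so Klrb1a and Klra2 were used as its ends. Protein motifs, also planned, were not analysed here.

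All 8 members were named whatever their values. For other lists up to 4 called genes (all, if 5 or fewer) and 2 uncalled genes with the largest differences were named, and exceptions are marked. Cell type markers were named after their values were seen. Members and lists were chosen with earlier results of these data known. The procedure was tested on simulated data, with variances drawn from the fitted prior and with variances set at each probe set's posterior value. The posterior version was run first and left more unchanged probe sets called than the threshold allows. The prior version was added after that was seen. It still called some unchanged probe sets, though fewer, and recovered fewer of the changed ones. The fit was not altered. As alternatives, the technical array was read in other ways, the replicate number was added as a block, arrays were rescaled by quantiles or by their medians, and dim probe sets were filtered out. The test was also run with eBayes' trend and robust options, without moderation, with a minimum difference of 0.5 (treat), without each sample in turn, and on probe sets averaged per gene. Figures were drawn with matplotlib 3.10.9.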

Additional observations from a re-analysis of the deposited data

How the results depend on the processing

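Klrk1 and Klrg1 were called lower in Tc17 under the following 8 alternatives. Some read the technical array otherwise (left out, as separate arrays, with the sample as a random block, with sample 1). Others rescaled the arrays (quantile, median), filtered on level or used trend and robust settings. Array medians already lay between 6.04 and 6.09, so centring on them had little to change. Both genes were also called with probe sets averaged, but each has 1 probe set, so its values stay the same there. Neither gene was called by an unmoderated test, which called 0 members and 0 probe sets. In it 2 members and 3968 of 41345 probe sets had an unadjusted p under 0.05. Limma's treat with a minimum difference of 0.5 called 0 members and 147 probe sets. Under treat 2 members and 836 of 41345 probe sets had an unadjusted p under 0.05. With each sample left out in turn, limma called from 0 to 0 members (2 to 4 at an unadjusted p under 0.05) and from 48 to 125 probe sets. All differences of both genes stayed below 0, between −1.41 and −1.19 for Klrk1 and between −0.997 and −0.879 for Klrg1.

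Over all probe sets, 418 were called as reported and 1581 with the technical array averaged with sample 1. With 6 separate arrays 2318 were called, and with the sample as a random block 2074. The filter on level, which tested fewer probe sets, left 648. Separate arrays count the repeats of sample 2 as samples, and the technical array resembled sample 2 more than sample 1. Calls made only under those readings are therefore not taken as support. With the replicate number as a block 1535 probe sets were called, and among the receptors still Klrk1 and Klrg1. Samples of the same number deviated together (Pearson's r = 0.313 over probe sets, for 2 pairs), which does not by itself show that they were paired. Klri2 was called under 4 of these settings (technical array with sample 1, separate arrays, random block, replicate block), and Klre1 with the technical array averaged with sample 1 (limma adjusted p = 0.0435). Across all settings run, limma called from 0 to 4 of the 13 ligand genes, from 0 to 4 of the 15 adaptor and kinase genes and from 0 to 10 of the 20 regulators, against 0, 0 and 4 as reported. Of the 23 other genes of the NK gene complex it called 4 with the technical array averaged with sample 1 (Clec2i, BC064078, Cd69, Clec7a), 4 with separate arrays (Gabarapl1 in place of Clec2i), 3 with the random block (BC064078, Cd69, Clec7a) and the first 4 again with the replicate block, against 0 as reported. Ulbp1, Cdh1, Fcer1g, Plcg2, Prdm1, Id3 and Slamf7 were also called under each of these 4 settings, H2-T23 under all but the replicate block, and Crtam under that block alone (limma adjusted p = 0.00852).

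The sign turned for uncalled genes only. Klrc2 was at −0.26 without Tc17 sample 2 and −0.11 without Tc1 sample 1 (range −0.26 to 0.29 over samples left out). Klrb1c was at −0.0405 with the technical array left out, −0.0425 with it averaged with sample 1, and −0.0011 without Tc17 sample 1 (range −0.0011 to 0.091). Klrb1f was at 0.83 without Tc17 sample 1 and 0.76 without Tc1 sample 2 (range −0.90 to 0.83), and Klra5 at −0.28 without Tc17 sample 2 and −0.48 without Tc1 sample 1 (range −0.48 to 1.61). For both, such fits set samples of different number against each other. The dim signal of Klrc2, Klre1 and Klrb1c, and of Klrg1 in Tc17, limits what their differences show.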

Other observations

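Klra5 and Klrb1f were the genes that differed most between the samples numbered 1 and 2 in both cultures, a pattern looked for after the values of Klrb1f had been seen. Ranked by the smaller of their differences in Tc17 and in Tc1, they stood first and second of 22180 genes. Only 12 genes (0.0541%) differed by at least 1 on the log2 scale in the same direction in both cultures, 11 of them higher in sample 2. Bcl2l11, a death-promoting gene of the BCL2 family, and Bcl6, a transcriptional repressor gene, were among the others, with sample 2 above sample 1 by 1.36 and 1.24 in Tc17 and by 1.56 and 1.55 in Tc1. Slamf6, a SLAM family receptor gene, was also among them, at 1.59 in Tc17 and 1.11 in Tc1. Of the 43 measured genes of the NK gene complex, 2 were in this group, the receptors Klra5 and Klrb1f. No cause was tested.

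Receptors of NK cells outside the lectin-like family were also read from the same fit. None of 10 measured genes was called by limma, with 7 at an unadjusted p under 0.05 (against 15.9% over all genes), and their median difference was −0.39. Crtam, an adhesion receptor gene of activated cytotoxic cells, measured 9.09, 8.32 and 8.45 in Tc17 and 8.10, 7.34 and 7.47 in Tc1 (limma adjusted p = 0.327). Within each sample number the Tc17 value was higher. Slamf7, another SLAM family receptor gene, measured 11.73, 11.91 and 11.97 in Tc17 and 12.60, 12.87 and 12.88 in Tc1 (limma adjusted p = 0.0817). Cd69, an early activation marker that lies within the NK gene complex and was picked after its values were seen, measured 12.02, 11.65 and 11.65 in Tc17 and 11.30, 11.07 and 11.06 in Tc1 (limma adjusted p = 0.206). Cd69 and Slamf7 were called with the technical array averaged with sample 1 (and under further settings), and Crtam with the replicate number as a block.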
